A study of Mus musculus with 42 samples.

Results

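The genes described here make cholesterol or control its level in the cell, and they were followed through every tissue and Trp53 genotype of a mouse RNA sequencing series. The 30 genes were listed by name, with earlier results of these data known, so shares of called members are descriptive. All 30 were found among the 49585 genes of the count table and tested in every comparison. They comprise 8 enzymes from acetyl-CoA to the isoprenoids, 11 enzymes from squalene to cholesterol, 4 sterol sensing genes, 2 genes of sterol transfer and esterification, and 5 genes of the LXR branch (2 receptors and 3 targets). The series held 42 libraries in 13 groups from mice aged 4 weeks on a mixed background that the labels give as 50% BALB/C and 50% C57BL6. Null mice carried no functional p53, Het mice carried 1 intact allele (p53 +/-), and AD (p53 AD/-) and RP (p53 RP/-) mice each paired 1 altered allele, AD or RP, with a null one. The labels do not say what the AD and RP alleles change. Every group thus carried at least 1 null allele, and no group with both alleles intact was analysed here. For irradiated (IR) thymus, collected at 4 h, every one of the 4 genotypes had 4 mice. Unirradiated (basal) thymus had 8 mice, of which 2 were Null, 3 Het and 3 AD. For basal intestine, basal liver and basal pancreas there were 6 mice each, 3 AD and 3 Null.

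Cholesterol is built from acetyl-CoA through mevalonate and the isoprenoids to squalene, which is oxidised, closed into a ring system and trimmed to cholesterol. When sterol in the endoplasmic reticulum is low, the escort protein encoded by Scap carries the transcription factor encoded by Srebf2 (SREBP2) to the Golgi, where it is cut and freed to switch on the enzymes, while the Insig proteins hold the complex back when sterol is plentiful. The LXR receptors, encoded by Nr1h2 and Nr1h3, respond to oxidised sterols and switch on the exporters Abca1 and Abcg1 and the ubiquitin ligase Mylip, which lowers lipoprotein uptake. In the thymus, dividing thymocytes make sterol for new membranes, and macrophages that clear dying thymocytes handle the sterol of the cells they take up.

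Levels are given in CPM (counts as a rate per library size, scaled by TMM, the trimmed mean of M-values, over all 42 libraries), and libraries are named by genotype and animal number. Changes are log2 fold changes from edgeR ± standard error (SE). The SE was derived as the size of the change divided by the square root of the F statistic of the test. A gene was called, or said to have risen or fallen, at a Benjamini-Hochberg adjusted p under 0.05 over all genes tested. Thymus libraries held 26398761 to 33331829 counts, intestine libraries 24340398 to 34772519, liver libraries 26000528 to 32487187 and pancreas libraries 19861977 to 24815911. Trp53 itself averaged 13.4 CPM in irradiated Null thymus, against 21.5 in Het, 23.9 in AD and 23 in RP. In basal thymus and intestine Trp53 was also above Null in AD (23.3 against 14.8 and 15.1 against 9.86 CPM). In basal liver it averaged 7.65 CPM in AD and 6.95 in Null (0.19 ± 0.22), and in pancreas it ran the other way, at 9.40 CPM in AD and 11.6 in Null (-0.31 ± 0.22), so its level does not check the labels in those tissues. Within a tissue each library came from another mouse, and 6 of the 25 mice gave more than 1 tissue. The p-values describe the spread among these few mice. Among irradiated thymus libraries Het-631 stood apart. Its macrophage markers (8 genes) summed to 198 CPM against 334 to 407 in the other Het libraries, and its markers of dividing cells (10 genes) summed to 3773 CPM against 2456 to 2758. Het-595 held both the X-inactivation transcript Xist (782 CPM) and the Y-linked Ddx3y (135 CPM), and Het-631 held both at 89.3 and 102 CPM. In the other irradiated libraries one of the pair was at or below 24.2 CPM. Among basal thymus libraries Het-855 (Xist 111 and Ddx3y 131 CPM) and Null-923 (57.9 and 180 CPM) also held both. Basal AD-700 (33.7 and 133 CPM) and AD-701 (33.8 and 155 CPM) did so with less Xist. AD-727 held the liver transcript Alb at 120 CPM, above the 0.282 to 27.4 CPM of the other irradiated thymus libraries.

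Irradiated Het thymus was compared with irradiated Null thymus to ask how the genes differed with 1 intact p53 allele. In Het, 9 of the 19 enzymes fell and 3 of the 5 genes of the LXR branch (Nr1h3, Abca1 and Nr1h2) rose. Of the 30 genes 10 fell and 4 rose, where 9.38% of all 22206 genes tested fell and 9.79% rose. The median change over the 30 genes was -0.23 on the log2 scale, against -0.01 over all genes tested. All 9 enzymes that were called were lower in Het (3 of the 8 isoprenoid enzymes and 6 of the 11 sterol enzymes), and no enzyme was called higher. In these bulk samples, fewer cells of a type and less RNA per cell cannot be told apart.

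Hmgcs1, which condenses acetoacetyl-CoA with acetyl-CoA at the head of the pathway, lies at chr13:119690379-119708260 on GRCm38. It measured 52.2, 57.5, 59.6 and 62.1 CPM in the 4 Null mice and 33.7, 35.6, 38.4 and 39.2 CPM in the 4 Het mice. Each Het library was below each Null library, and the change was -0.68 ± 0.07 (0.626-fold, adjusted p = 2.95e-06). The isomerase Idi1, which makes the allylic unit for chain building, measured 5.41 to 6.14 CPM in Null and 3.24 to 3.99 CPM in Het, again without overlap (-0.68 ± 0.11, adjusted p = 0.00024). Acat2, the thiolase that joins acetyl-CoA units, fell less (-0.30 ± 0.09, adjusted p = 0.0291), from 16.6 to 18.7 CPM in Null to 12.3 to 15.7 CPM in Het. The kinases Mvk and Pmvk averaged 7.26 and 17.8 CPM in Null and 7.79 and 17.2 CPM in Het and were not called, nor were Mvd, Fdps and Ggps1.

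Past squalene, Sqle and Cyp51 had the largest falls of the 19 enzymes on the log2 scale. Sqle, the monooxygenase that oxidises squalene and a control point of the pathway (chr15:59315077-59331192), measured 20.04, 23.7, 24.2 and 30.6 CPM in Null and 12.4, 12.7, 13.2 and 13.8 CPM in Het. The Het libraries lay close together and below each Null library (-0.94 ± 0.11, 0.522-fold, adjusted p = 1.05e-05). Cyp51, the lanosterol demethylase (chr5:4081145-4104746), measured 25.0, 27.0, 28.7 and 29.0 CPM in Null and 13.5, 14.8, 15.1 and 15.7 CPM in Het. Here too the groups were apart (-0.91 ± 0.07, 0.532-fold, adjusted p = 7.36e-08). Lss, which closes the oxidised squalene into lanosterol, fell from 12.7 to 16.6 CPM to 9.19 to 10.9 CPM (-0.55 ± 0.10, adjusted p = 0.000458). Changes in 3 enzymes that process lanosterol were smaller: Tm7sf2 (-0.40 ± 0.12), Nsdhl (-0.37 ± 0.12) and Msmo1 (-0.34 ± 0.10), with Het and Null libraries overlapping for Tm7sf2 and Nsdhl but not for Msmo1. Of the late enzymes, Ebp, Sc5d and Dhcr7 averaged 21.6, 35.3 and 16.02 CPM in Null and 18.3, 33.0 and 15.8 CPM in Het without a call.

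The sensing genes moved in both directions. Insig1, which holds the SREBP2 complex in the endoplasmic reticulum and is itself an SREBP target (chr5:28071363-28078662), measured 25.3, 26.1, 28.0 and 30.01 CPM in Null and 17.8, 19.0, 22.2 and 22.4 CPM in Het. The 2 groups did not overlap and Insig1 fell by 0.45 on the log2 scale (SE 0.09, adjusted p = 0.0015). Scap rose from 33.2 to 40.4 CPM to 41.6 to 49.9 CPM (0.34 ± 0.08, adjusted p = 0.00612). The transcript of SREBP2 itself, Srebf2, averaged 61.5 CPM in Null (SD 10.1, n = 4) and 60.7 CPM in Het (SD 6.47, n = 4), and Insig2, the related retention protein, averaged 17.7 and 18.8 CPM. Neither was called. Stard4, a cytosolic sterol carrier, and Soat1, which esterifies cholesterol for storage, were also not called (averages of 95.3 and 99.5 CPM for Soat1).

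In the LXR branch, Nr1h3, the LXR alpha receptor found mainly in liver, fat and macrophages (chr2:91184061-91202834), measured 8.83, 9.83, 11.02 and 11.2 CPM in Null and 11.2, 17.6, 18.2 and 20.6 CPM in Het. The Het-631 library stood level with the highest Null library, and the other Het libraries were well above all Null libraries (0.71 ± 0.14, adjusted p = 0.00133). Without Het-631 the change in Nr1h3 was 0.86. The exporter Abca1 (chr4:53030787-53159895), which loads cellular cholesterol onto apolipoprotein, measured 87.5, 94.8, 96.1 and 108 CPM in Null and 110, 135, 155 and 165 CPM in Het. All Het libraries were above all Null libraries (0.53 ± 0.11, adjusted p = 0.00173), and Het-631 was again the lowest of them. Nr1h2, the widely expressed LXR beta receptor, rose slightly (0.20 ± 0.06, adjusted p = 0.0343). Abcg1, the exporter to mature lipoprotein particles, ranged from 61.0 CPM in Het-631 to 117 CPM in Het-594 and was not called (-0.02 ± 0.14), and Mylip was not called (0.20 ± 0.12). Without Het-631 the calls numbered 16: Mylip, Fdft1 and Stard4 were added and Msmo1 was lost. Without Het-595, or without Null-856, they numbered 9. The calls for Hmgcs1, Idi1, Sqle, Lss, Cyp51, Scap, Insig1, Nr1h3 and Abca1 were kept in all 14 alternatives run, and those for Acat2, Tm7sf2, Msmo1, Nsdhl and Nr1h2 were lost in 5, 5, 5, 6 and 7 of them.

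**Figure D1:**
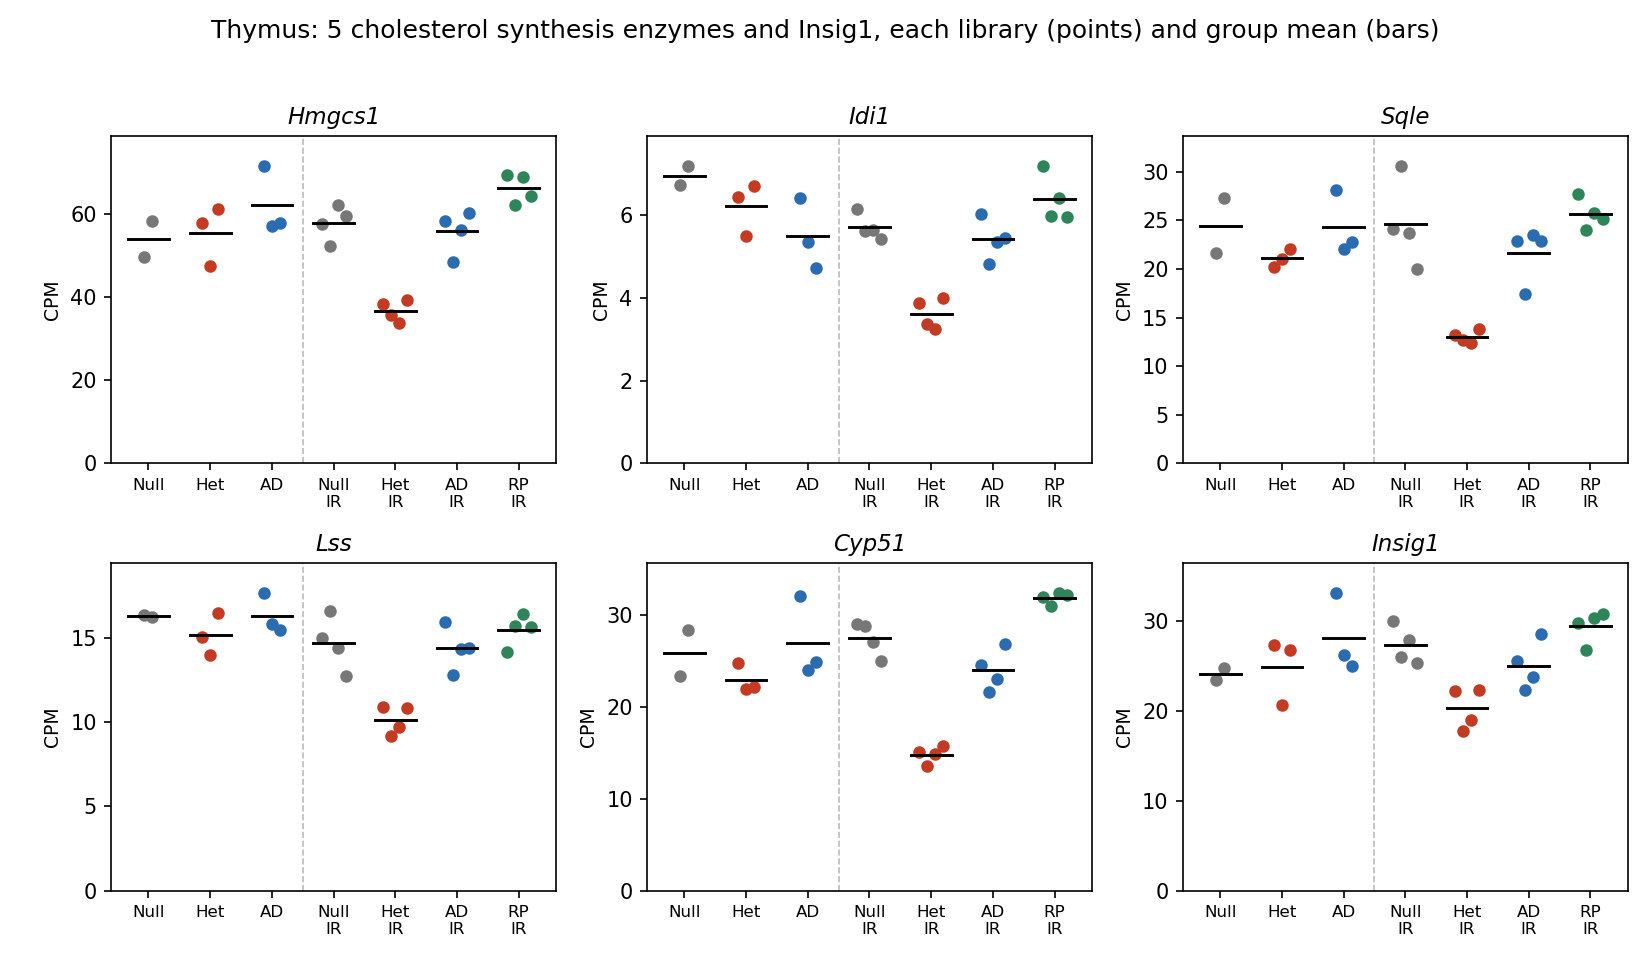
CPM (linear axis from 0) of Hmgcs1, Idi1, Sqle, Lss, Cyp51 and Insig1 in thymus, with a point for each library, a bar for each group mean, unirradiated groups left of the dashed line and irradiated (IR) groups right of it. The 4 irradiated Het libraries lie below the irradiated Null and RP libraries in all 6 panels, at 13.5 to 15.7 CPM for Cyp51 against 25.0 to 29.0 CPM in Null.

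Markers of other cells moved in the same comparison. Of the 10 markers of dividing cells 6 fell in Het: Ccnb1 (-0.88 ± 0.15), Pcna (-0.65 ± 0.11), Cdk1 (-0.59 ± 0.12), Mcm2 (-0.50 ± 0.08), Mcm5 and Ccna2. Their summed level was 2456 to 2758 CPM in 3 Het libraries and 3773 CPM in Het-631, and 3310 to 3617 CPM in Null. Hmgcs1 measured 39.2, Sqle 13.8 and Cyp51 15.7 CPM in Het-631. Of 8 macrophage markers 1 rose, Cd68 (0.43 ± 0.12), and the sum was 198 to 407 CPM in Het and 214 to 286 CPM in Null. Of 7 thymic epithelial markers 4 rose, Krt8 (0.91 ± 0.07), Prss16 (0.59 ± 0.09), Psmb11 (0.43 ± 0.13) and Ly75 (0.40 ± 0.06), with sums of 879 to 1045 CPM in Het and 574 to 640 CPM in Null. Of 8 thymocyte markers 2 rose, Rag1 (0.48 ± 0.11) and Cd3e (0.23 ± 0.08), with sums of 5312 to 7199 and 4277 to 5653 CPM. No marker of these lists was at 0 in the irradiated groups. The part of these shifts in the lower enzymes and in the rises of Nr1h3, Abca1, Nr1h2 and Scap was not tested.

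Sequence upstream of genes that moved is shown for 3 that fell together (Hmgcs1, Cyp51 and Insig1) and for Abca1, which rose. The 250 bases before the start site come from RefSeq on GRCm38.p6, printed 5′ to 3′ along the gene's strand, with capitals for the sterol regulatory element core (TCACNCCAC) and for the CCAAT box that binds NF-Y, a partner of SREBP, on either strand. They lie at chr13:119690101-119690350 on the plus strand, chr5:4104698-4104947 on the minus strand, chr5:28071162-28071411 on the plus strand and chr4:53159896-53160145 on the minus strand.
Hmgcs1: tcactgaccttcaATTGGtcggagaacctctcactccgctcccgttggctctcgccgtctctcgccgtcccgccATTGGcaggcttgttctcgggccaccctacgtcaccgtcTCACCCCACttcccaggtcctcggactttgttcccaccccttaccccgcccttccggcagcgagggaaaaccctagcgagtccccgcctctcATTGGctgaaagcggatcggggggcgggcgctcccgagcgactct
Cyp51: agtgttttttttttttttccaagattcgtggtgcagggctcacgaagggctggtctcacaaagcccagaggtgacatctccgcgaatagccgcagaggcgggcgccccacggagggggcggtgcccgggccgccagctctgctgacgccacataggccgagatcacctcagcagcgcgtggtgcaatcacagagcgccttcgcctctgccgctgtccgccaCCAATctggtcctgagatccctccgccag
Insig1: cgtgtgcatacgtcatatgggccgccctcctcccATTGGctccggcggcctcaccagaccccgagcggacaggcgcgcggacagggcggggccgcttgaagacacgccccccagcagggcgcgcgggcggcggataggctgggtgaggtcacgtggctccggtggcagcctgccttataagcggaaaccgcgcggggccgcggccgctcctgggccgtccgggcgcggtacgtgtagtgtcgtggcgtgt
Abca1: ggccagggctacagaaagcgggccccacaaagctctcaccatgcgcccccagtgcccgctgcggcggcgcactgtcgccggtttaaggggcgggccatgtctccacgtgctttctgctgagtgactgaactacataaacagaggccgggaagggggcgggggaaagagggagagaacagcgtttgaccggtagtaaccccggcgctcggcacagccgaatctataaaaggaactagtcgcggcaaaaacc
The Hmgcs1 stretch holds the sterol regulatory element core at -137 from the start site and 3 CCAAT boxes at -237, -176 and -45, all 3 on the opposite strand. The Cyp51 stretch holds 1 CCAAT box at -29 and the Insig1 stretch 1 at -216, and the Abca1 stretch holds neither motif. RefSeq windows of 300 bases (250 before to 50 after the start) were matched for 25 of the 30 genes and for 27025 genes in all, and both strands were searched. CCAAT was found for 20 of the 25 genes, 80.0%, and for 41.1% of all genes, and the GC box GGGCGG for 21 of 25, 84.0%, and 38.2% of all genes. The sterol element core was found for 1 of 25 (4.0%, Hmgcs1) and for 1.44% of all genes, and the LXR type of repeat, AGGTCA followed after 4 bases by AGGTCA, for 0 of 25 and 0.0148% of all genes. No 2 matches of different motifs overlapped in these windows. A match describes the letters only.

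The AD and RP alleles were set against Het and against Null in irradiated thymus to ask on which side the altered alleles fell. Of the 19 enzymes 6 were called higher than Het in AD and 11 in RP, and others overlapped Het, such as Ebp at 18.4 to 20.4 CPM in AD and 14.3 to 21.1 CPM in Het. Against Het, 7 of the 30 genes were higher in AD and 3 lower, where 5.69% of all genes tested were higher and 8.27% lower, and the median change was 0.18 over the 30 genes and 0.02 over all genes. Against Het, 13 genes were higher in RP and 2 lower, where 8.53% of all genes were higher and 10.2% lower, with medians of 0.24 and -0.01. Without Het-631 the calls in AD against Het numbered 17. These comparisons share the Het libraries with each other and with the Het against Null comparison, so their values are set side by side and are not independent.

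Cyp51 measured 21.6, 23.04, 24.5 and 26.8 CPM in AD and 30.9, 31.9, 32.1 and 32.3 CPM in RP. All 8 libraries were above the Het range of 13.5 to 15.7 CPM, with changes against Het of 0.72 ± 0.07 in AD (adjusted p = 2.17e-06) and 1.105 ± 0.07 in RP (adjusted p = 5.41e-09). Sqle measured 17.5, 22.8, 22.8 and 23.5 CPM in AD and 24.01, 25.2, 25.7 and 27.7 CPM in RP. Sqle was thus above the Het libraries in all 8, by 0.75 ± 0.11 in AD and 0.97 ± 0.11 in RP. Hmgcs1 rose against Het by 0.62 ± 0.07 in AD (48.4 to 60.2 CPM) and by 0.85 ± 0.07 in RP (62.2 to 69.4 CPM), and Idi1 by 0.60 ± 0.11 and 0.82 ± 0.11. Lss rose by 0.52 ± 0.10 and 0.61 ± 0.10, and Insig1 by 0.32 ± 0.09 and 0.53 ± 0.09. The highest Het library and the lowest AD library for Insig1 both stood at 22.4 CPM.

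Beyond these 6 genes, Dhcr7, the last reductase of one arm of the pathway, was higher in AD than in Het (0.28 ± 0.09, adjusted p = 0.0379). That call was lost in 7 of 14 alternatives, 5 of them leaving out AD-633, AD-726, AD-727, Het-594 or Het-595. The call for Insig1 in AD was lost in 5 of 14, 4 of them leaving out AD-630, AD-727, Het-595 or Het-603. In RP the genes Mvd (0.51 ± 0.15), Hsd17b7 (0.49 ± 0.12), Msmo1 (0.45 ± 0.10), Stard4 (0.42 ± 0.12), Fdft1 (0.39 ± 0.11), Tm7sf2 (0.36 ± 0.12) and Acat2 (0.33 ± 0.09) were higher than in Het. Of these, the call for Tm7sf2 was lost in 9 of 14 alternatives, including each fit that left out 1 library except that without Het-631. The call for Fdft1 was lost in 4 (without Het-595, Het-603, RP-649 or RP-654), for Acat2 in 3 (Het-595, RP-649 or RP-656), for Stard4 in 3 (Het-595, Het-603 or RP-654) and for Mvd in 2 (RP-649 or RP-653). Mvd decarboxylates mevalonate diphosphate, Fdft1 joins farnesyl units into squalene, and Hsd17b7 and Msmo1 take part in removing the methyl groups at position 4 of the sterol ring. On the LXR side, Nr1h3 was lower than in Het in AD (-0.78 ± 0.14, 8.72 to 11.3 CPM) and in RP (-0.71 ± 0.14, 9.94 to 10.8 CPM). Abca1 was lower in AD (-0.40 ± 0.11, 89.5 to 113 CPM) and in RP (-0.72 ± 0.11, 78.2 to 90.2 CPM), and AD libraries overlapped the lowest Het library, Het-631 at 110 CPM. Without AD-630 the lower Abca1 in AD was not called. Scap was lower in AD (-0.37 ± 0.08), and in RP, where it was not called, it measured 37.3 to 41.2 CPM. Macrophage markers lower than in Het numbered 4 of 8 in AD (Cd68, Adgre1, C1qb and Mrc1, from -0.56 to -0.46) and 2 of 8 in RP (Cd68 and Mrc1), with sums of 218 to 258 CPM in AD and 240 to 260 CPM in RP. Markers of dividing cells higher than in Het numbered 3 of 10 in AD and 8 of 10 in RP, with sums of 3060 to 3419 and 3433 to 3885 CPM. Thymic epithelial markers lower than in Het were 4 of 7 in both, Krt8, Prss16, Psmb11 and Ly75, with sums of 564.6 to 648.97 CPM in AD and 594.98 to 686.9 CPM in RP. Of 6 fibroblast markers 2 were lower in both, Dcn and Lum, with sums of 256 to 564 CPM in AD, 360 to 454 CPM in RP and 311 to 692 CPM in Het. Of 8 thymocyte markers Ptcra was higher in both, and Rag1 and Cd3e were lower in RP, with sums of 5684 to 5891 CPM in AD and 5072 to 6194 CPM in RP. The acinar marker Ctrb1 was 1 of 4 lower in AD. The part of these shifts in the differences from Het was not tested.

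**Figure D2:**
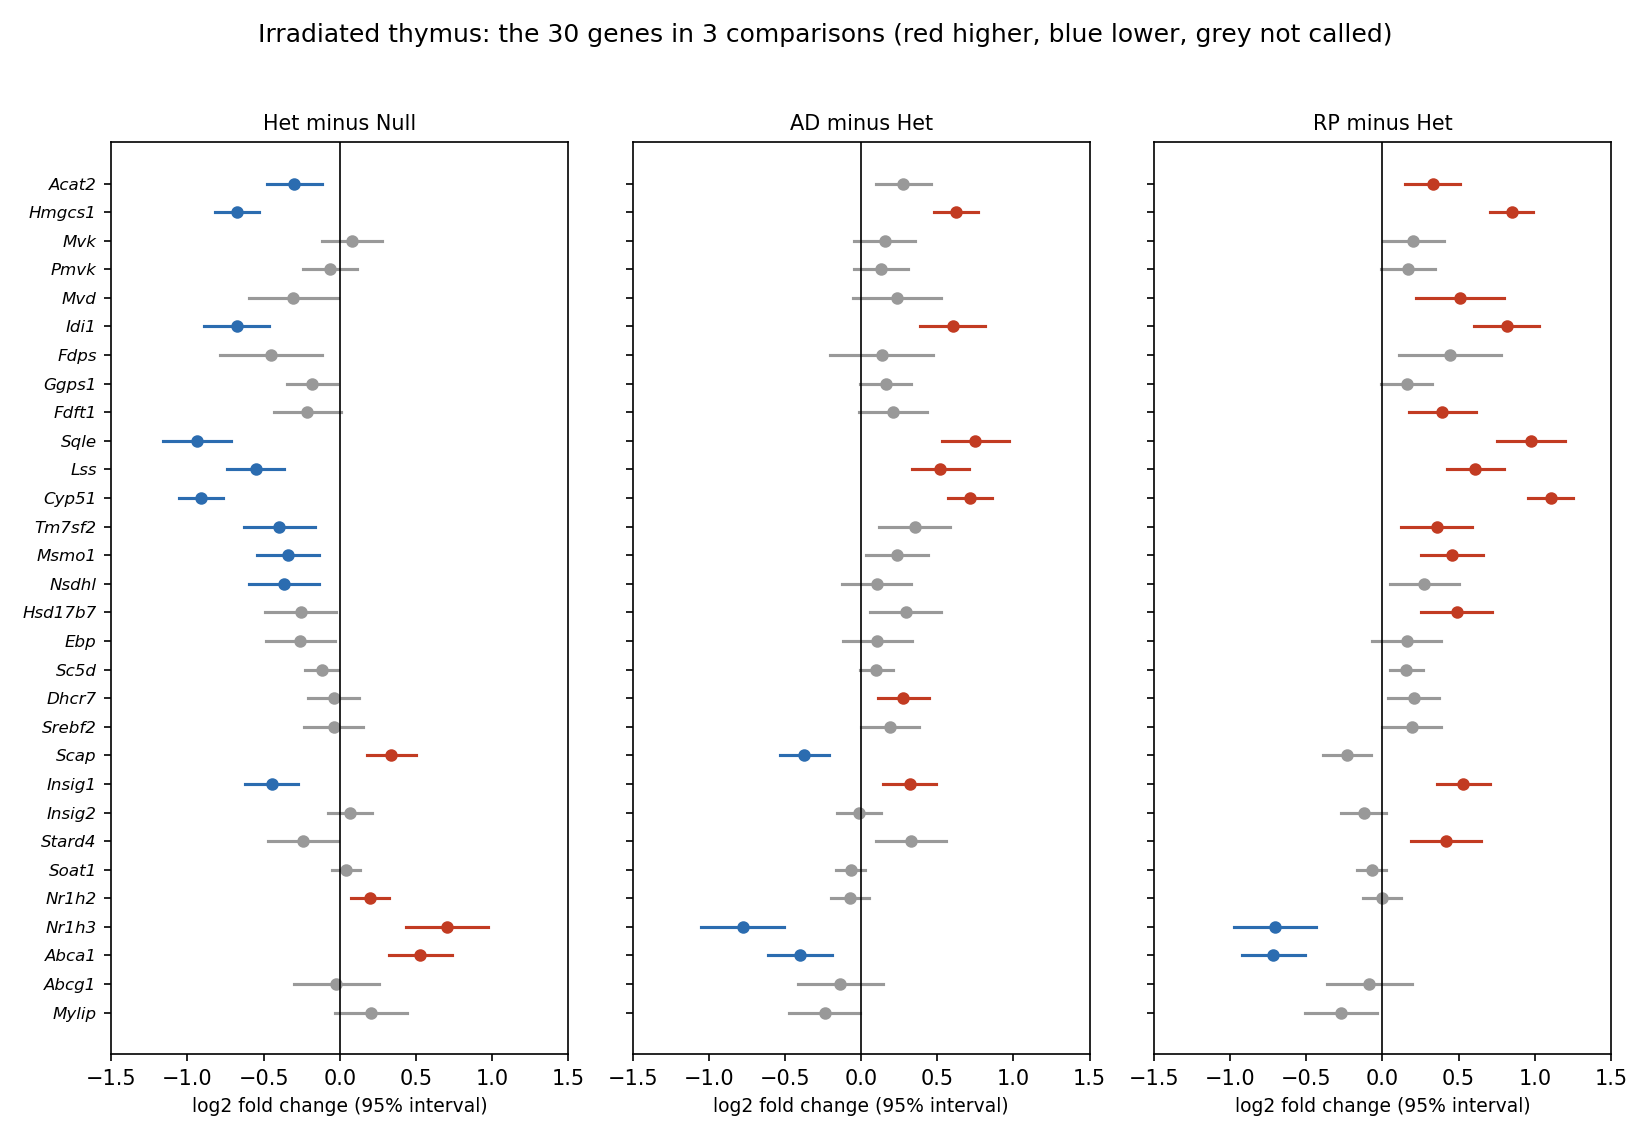
Log2 fold change of the 30 genes (rows) in irradiated thymus for Het minus Null, AD minus Het and RP minus Het, with lines for the 95% interval, red for called higher, blue for called lower and grey for not called. Cyp51 stands at -0.91, 0.72 and 1.105 across the 3 panels, and Nr1h3 at 0.71, -0.78 and -0.71.

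Against Null, 0 of the 30 genes were called in AD (0.027% of all genes) and 0 in RP (0.0315% of all genes) by edgeR, and DESeq2 called 0 in both. At an unadjusted p under 0.05 there were 4 genes in each comparison. In AD these were Nsdhl (-0.26 ± 0.12), Dhcr7 (0.24 ± 0.09), Mvk (0.23 ± 0.10) and Cyp51 (-0.20 ± 0.07, 95% interval -0.34 to -0.05). In RP they were Mvk (0.28 ± 0.10), Nr1h2 (0.20 ± 0.06), Cyp51 (0.19 ± 0.07, 95% interval 0.05 to 0.34) and Hmgcs1 (0.17 ± 0.07). For Cyp51 the interval against Null thus kept differences within about the size of 0.34 on the log2 scale in either allele. Between AD and RP, 0 of the 30 genes were called (0% of all genes), with 5 at an unadjusted p under 0.05. Of these Cyp51 had the smallest p: each RP library was above each AD library (-0.39 ± 0.07 for AD minus RP, adjusted p = 0.354), and DESeq2 called this 1 gene (-0.40), as did edgeR on the 2 groups alone (-0.39). The next by p were Hmgcs1 (-0.23 ± 0.07), Abca1 (0.31 ± 0.11) and Insig1 (-0.21 ± 0.09).

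In unirradiated thymus none of the 30 genes was called between genotypes. Among Het, AD and Null, edgeR called 0 of the 30 genes in Het against Null (0.0676% of all genes), 0 in AD against Null (0.0676%) and 0 in AD against Het (0%), and DESeq2 called 0 in each. The numbers at an unadjusted p under 0.05 were 0, 1 and 0. Cyp51 measured 23.4 and 28.3 CPM in the 2 Null mice, 21.9, 22.1 and 24.7 CPM in the 3 Het mice and 23.96, 24.8 and 32.1 CPM in the 3 AD mice. Sqle measured 21.7 and 27.3 CPM in Null, 20.2, 21.1 and 22.1 CPM in Het, and 22.1, 22.8 and 28.1 CPM in AD. The Het and Null ranges overlapped for both genes. They did not overlap for Idi1 (5.49 to 6.70 CPM in Het, 6.73 to 7.18 in Null) or Msmo1 (12.2 to 12.9 and 13.9 to 15.1). Tm7sf2 (4.60 to 6.10 and 6.34 to 7.11) and Fdps (2.30 to 2.73 and 3.11 to 3.24) were also lower in Het without overlap. For Dhcr7 each Het library was above both Null libraries (16.9 to 18.9 and 16.4 to 16.5 CPM). Only 2 Null mice stand behind these ranges. The gene under an unadjusted p of 0.05 was Idi1 in AD against Null (-0.33 ± 0.15, adjusted p = 0.643). The next smallest p in that comparison belonged to Nr1h3 (0.27 ± 0.13), Dhcr7 (0.18 ± 0.09) and Abcg1 (-0.28 ± 0.14). In Het against Null the smallest p belonged to Tm7sf2 (-0.30 ± 0.15), Abcg1 (-0.25 ± 0.14), Msmo1 (-0.17 ± 0.10) and Sqle (-0.18 ± 0.11). AD-702 was the highest of the 8 basal thymus libraries for 13 of the 19 enzymes. Adipocyte markers (8 genes) summed to 97.0 and 101 CPM in the 2 Null libraries, 129 to 354 CPM in Het and 261 to 333 CPM in AD. Of these 8 markers edgeR called 0 against Null, with 6 in Het and 8 in AD at an unadjusted p under 0.05. Of 6 fibroblast markers 0 were called, with 5 and 3 at that p. The part of these in the comparisons with Null was not tested. The self-test on simulated data recovered 34.3% of changes of 1.5-fold in basal AD against Het thymus. It gave every gene the same dispersion, so this recovery need not hold for the 30 genes.

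Irradiated and unirradiated thymus came from different mice and were compared within each genotype. In Het, 7 of the 30 genes were lower and 3 higher after irradiation, where 8.09% of the 23605 genes tested were lower and 8.74% higher, with a median of -0.11 over the 30 genes and 0.02 over all genes. Hmgcs1 measured 47.4, 57.9 and 61.2 CPM in the 3 basal Het mice, above all 4 irradiated Het mice at 33.7 to 39.2 CPM (-0.61 ± 0.09, adjusted p = 3.02e-05). Idi1 measured 5.49, 6.43 and 6.70 CPM in basal Het against 3.24 to 3.99 CPM (-0.80 ± 0.12), and Cyp51 21.9 to 24.7 against 13.5 to 15.7 CPM (-0.65 ± 0.09). The basal libraries were above all irradiated libraries for both genes. Sqle (-0.71 ± 0.12), Lss (-0.60 ± 0.10), Ggps1 (-0.32 ± 0.08), which makes the geranylgeranyl anchor for small GTPases, and Insig1 (-0.31 ± 0.11) were also lower. The call for Insig1 was lost in 6 of 13 alternatives, 4 of them leaving out Het-595, Het-603, Het-703 or Het-855, and that for Scap, given next, without Het-703. Nr1h3 rose from 7.96, 9.20 and 9.54 CPM to 11.2 to 20.6 CPM (0.91 ± 0.14, adjusted p = 4.53e-05). Abca1 rose from 77.3, 79.2 and 101 CPM to 110 to 165 CPM (0.70 ± 0.12), and Scap rose by 0.30 ± 0.08. The groups did not overlap for Nr1h3 or Abca1. Markers of dividing cells moved here too, with 4 of 10 lower and 1 higher. Of 8 macrophage markers 1 was higher (Cd68), and of 7 thymic epithelial markers 3 were higher. Of 8 thymocyte markers 2 were called, with sums of 5273 to 5871 CPM in basal and 5312 to 7199 CPM in irradiated Het. Of 6 B cell markers 1 was called, with sums of 316 to 337 and 186 to 334 CPM. The part of these in the result was not tested. The sums of the dividing-cell markers were 3134 to 3362 CPM in basal Het, against 2456 to 2758 CPM in 3 irradiated Het libraries and 3773 CPM in Het-631.

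In Null and AD thymus, edgeR and DESeq2 each called 0 of the 30 genes between irradiated and basal mice. Called genes were 0.131% of all genes in Null and 0.546% in AD, and 1 and 2 of the 30 genes had an unadjusted p under 0.05. In Null the smallest p belonged to Nr1h3 (0.37 ± 0.16), Idi1 (-0.26 ± 0.13), Ggps1 (-0.17 ± 0.09) and Abca1 (0.25 ± 0.14). In AD they belonged to Fdps (-0.48 ± 0.18), Pmvk (0.27 ± 0.12), Scap (-0.15 ± 0.08) and Lss (-0.17 ± 0.10). Of 10 markers of dividing cells edgeR called 2 in AD and 0 in Null between irradiated and basal mice, and their part was not tested. The difference between genotypes in the change with irradiation was tested as an interaction. The change with irradiation was lower in Het than in Null for 3 of the 30 genes and higher for 0 (1.07% and 2.37% of all genes): Cyp51 (-0.77 ± 0.14, adjusted p = 0.00126), Sqle (-0.75 ± 0.18, adjusted p = 0.0159) and Hmgcs1 (-0.74 ± 0.14, adjusted p = 0.00191). Without the basal library Null-859 the call for Sqle was lost, and without Het-631 the calls numbered 7. Against AD the change in Het was lower for 3 genes and higher for 2 (1.04% and 2.94% of all genes): Idi1 (-0.79 ± 0.17), Cyp51 (-0.49 ± 0.13), Hmgcs1 (-0.47 ± 0.13), Nr1h3 (0.88 ± 0.20) and Scap (0.45 ± 0.11). Of these 5, Idi1 and Nr1h3 held in every fit that left out 1 library, and the calls for Hmgcs1, Cyp51 and Scap were lost in 10, 6 and 3 of the 14 such fits. The calls numbered 2 without AD-630 or Het-703, 3 without AD-727, AD-700, AD-701 or Het-595, and 9 without Het-631. Markers moved in these tests too. Of 7 thymic epithelial markers 3 (Krt8, Prss16 and Ly75) and of 8 macrophage markers 1 (Cd68) changed more in Het than in Null, and the same 4 genes changed more in Het than in AD. Of 10 dividing-cell markers 0 were called against Null by edgeR (5 at an unadjusted p under 0.05) and 1 against AD, Mcm2 (-0.50 ± 0.12). Thymic epithelial sums were 658 to 736 CPM in basal and 879 to 1045 CPM in irradiated Het, and their part in these differences was not tested. Between AD and Null the changes with irradiation differed for 0 genes by both edgeR and DESeq2 (0% of all genes), with 1 at an unadjusted p under 0.05, Insig1 (-0.36 ± 0.16). Of 8 adipocyte markers edgeR called 0 in this contrast, with 8 at an unadjusted p under 0.05, and 1 at that p in Het minus Null. Their sums were 97.0 and 101 CPM in basal Null and 98.2 to 348 CPM in irradiated Null. In AD they were 261 to 333 and 141 to 273 CPM. The part of this in the contrasts with basal Null was not tested.

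**Figure D3:**
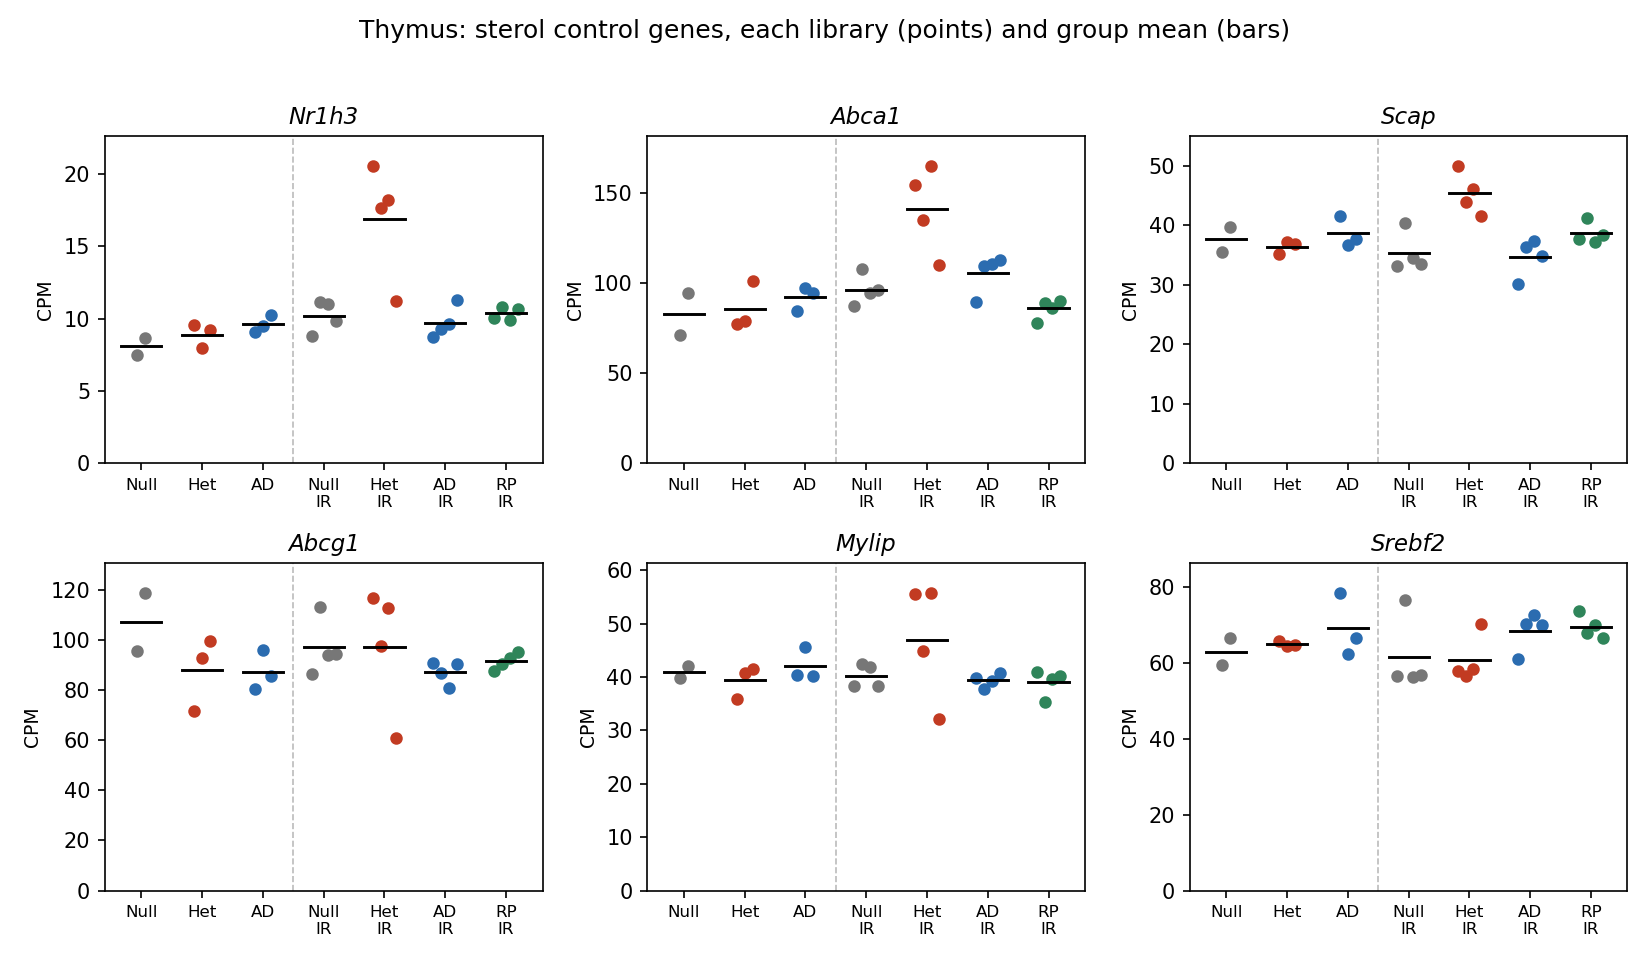
CPM (linear axis from 0) of Nr1h3, Abca1, Scap, Abcg1, Mylip and Srebf2 in thymus, with a point for each library, a bar for each group mean and irradiated (IR) groups right of the dashed line. Among irradiated Het libraries 1 of 4, Het-631, falls to 11.2 CPM for Nr1h3 and 61.0 CPM for Abcg1, while the other 3 stand at 17.6 to 20.6 and 97.8 to 117 CPM.

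Other genes that handle sterols, taken from lists around the 30, were read in irradiated Het against Null thymus, where the shares of all genes are those given above. Of 11 genes of sterol uptake, lysosomal export and ester breakdown 3 rose: the scavenger and lipoprotein receptor Lrp1 (0.95 ± 0.15), the ester hydrolase Nceh1 (0.33 ± 0.09) and the carrier Stard5 (0.23 ± 0.07). The phospholipid transfer protein Pltp, an LXR target, was 1 of 6 other efflux and LXR target genes to rise (0.62 ± 0.12), and Ch25h, which makes the oxysterol 25-hydroxycholesterol, was 1 of 6 bile acid and oxysterol enzymes to rise (1.17 ± 0.31). Of 10 genes of the ER-to-Golgi machinery 2 rose, Sec24d (0.35 ± 0.08) and Osbp (0.14 ± 0.05). Of 12 genes that use isoprenoids 4 fell: Pdss1 (-0.32 ± 0.11), Rabggtb (-0.31 ± 0.08), Coq2 (-0.28 ± 0.07) and Nus1 (-0.25 ± 0.08). Of 15 genes of fatty acid synthesis, the side controlled by SREBP1c, edgeR called 0 (2 at an unadjusted p under 0.05), with a median of -0.19. Lrp1, Nceh1, Stard5, Pltp and Ch25h were also lower in AD and in RP than in Het, for instance Lrp1 by -0.87 ± 0.15 and -0.94 ± 0.15. By edgeR, 0 genes of these 6 lists were called in AD or in RP against Null.

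Across unirradiated tissues of the AD and Null mice, each tissue was compared with the mean of the other 3. The liver stood highest for nearly the whole pathway. There 26 of the 30 genes were higher and 3 lower, where 30.1% of the 24431 genes tested were higher and 40.8% lower, and the median was 2.96 over the 30 genes against -0.42 over all genes. Of the 19 enzymes 18 were higher in liver. Compared per kb of exon so that genes can be set beside each other, Hmgcs1 had the highest liver level of the 30, 234 CPM per kb (SD 64.5, n = 6 libraries), followed by Insig1 at 200 (SD 71.2), Sc5d at 198 (SD 46.6), Insig2 at 197 (SD 17.4) and Ebp at 179 (SD 16.5). The steps between the first 4 of these were smaller than the SD of Hmgcs1 or Insig1, while the step from Insig2 to Ebp was slightly larger than the SD of either. These means and SDs pool AD and Null livers. Insig1, called lower in AD liver, ranged from 128 to 306 CPM per kb, so its SD includes a genotype difference and its place depends on the Null mice. The largest differences from other tissues were Insig2 (4.62 ± 0.07), the C14 sterol reductase Tm7sf2 (4.25 ± 0.08), the desaturase Sc5d (4.03 ± 0.07) and Hmgcs1 (3.92 ± 0.09). Srebf2 did not follow, with 7.97 CPM per kb in liver, 8.95 in intestine, 6.42 in pancreas and 9.28 in thymus (-0.08 ± 0.08, adjusted p = 0.394 for liver). The 3 genes lower in liver were Soat1 (-1.42 ± 0.09), Ggps1 (-0.98 ± 0.09) and Nr1h2 (-0.23 ± 0.07).

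**Figure D4:**
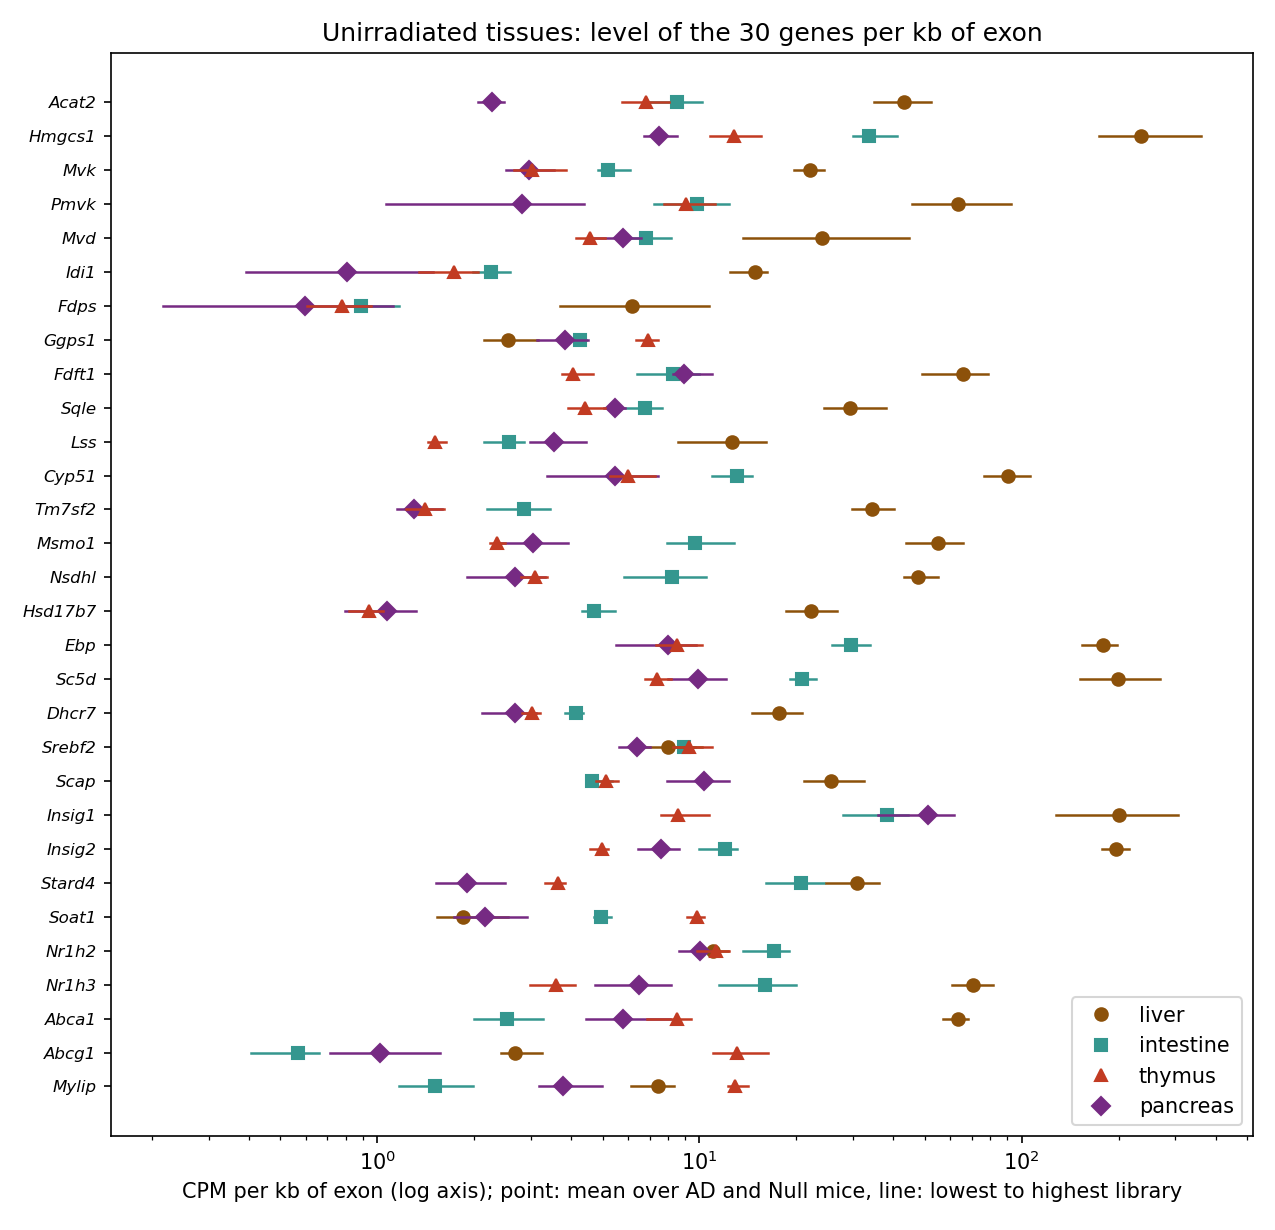
Level of the 30 genes (rows) in unirradiated tissues of AD and Null mice in CPM per kb of exon on a log axis, with a symbol for the mean of each tissue and a line from the lowest to the highest library (6 libraries a tissue, 5 for thymus). Liver lies right of the other tissues for 18 of the 19 enzymes, while Abcg1 and Mylip are highest in thymus at 13.1 and 12.9 CPM per kb.

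The thymus lay below the mean of the other tissues for most of the genes. That mean includes the high liver, as it also does for intestine and pancreas. In thymus 23 genes were lower and 5 higher (30.7% and 43.5% of all genes), with a median of -1.23 over the 30 genes and 0.22 over all genes. Low synthesis levels were not particular to thymus. Hmgcs1 measured 12.8 CPM per kb in thymus and 7.51 in pancreas, and Acat2 6.85 and 2.27. Fdft1 (4.06 and 8.98) and Lss (1.51 and 3.52) ran the other way. Abcg1 measured 13.1 CPM per kb in thymus (SD 2.01, n = 5) against 2.67 in liver, 1.02 in pancreas and 0.568 in intestine, a difference of 3.51 ± 0.12 from the mean of the others. Mylip (1.89 ± 0.08), Soat1 (1.87 ± 0.08), Ggps1 (1.003 ± 0.08) and Srebf2 (0.25 ± 0.08) were the other genes higher in thymus. Insig1 was the lowest there relative to the other tissues (-3.10 ± 0.14), followed by Nr1h3 (-2.46), Insig2 (-2.40) and Hsd17b7 (-2.36). Abca1 thus ran differently from Abcg1, with 63.6 CPM per kb in liver, 8.54 in thymus, 5.78 in pancreas and 2.53 in intestine.

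In intestine 8 genes were higher and 16 lower (35.4% and 27.6% of all genes), with a median of -0.25 against 0.03 over all genes. Pancreatic acinar markers (8 genes) varied widely among the intestine libraries. They summed to 667, 8624 and 84039 CPM in the 3 AD mice and 572, 9677 and 45559 CPM in the 3 Null mice. Their part in the intestine values was not tested. The sterol carrier Stard4 was highest by difference (1.75 ± 0.08, 20.7 CPM per kb), with Hsd17b7 (0.70), Nr1h2 (0.62) and Soat1 (0.50) next, and the LXR targets Abca1 (-2.59), Abcg1 (-2.59) and Mylip (-2.30) were the lowest. In pancreas 2 genes were higher, Insig1 (0.48 ± 0.10) and Scap (0.39 ± 0.08), and 26 were lower (30.7% and 31.1% of all genes), with a median of -1.25 against -0.13. Stard4 (-2.69), Pmvk (-2.64), Hmgcs1 (-2.51) and Acat2 (-2.47) were the lowest in pancreas. Fdps averaged 0.596 CPM per kb in pancreas and ranged from 0.216 to 1.12.

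The AD allele was compared with Null in unirradiated intestine, liver and pancreas to see how these genes stood without irradiation. In liver 3 of the 30 genes were lower in AD and 0 higher, where 0.114% of all 15755 genes tested were lower and 0.152% higher. Insig1 measured 396, 419 and 480 CPM in the 3 AD mice and 721, 747 and 945 CPM in the 3 Null mice. The groups did not overlap (-0.85 ± 0.12, 0.556-fold, adjusted p = 0.0235). Fdps, which makes farnesyl diphosphate, measured 15.6, 16 and 18.1 CPM in AD and 30.5, 30.8 and 45.1 CPM in Null (-1.05 ± 0.17, adjusted p = 0.0342). Lss measured 92.7, 105 and 114 CPM in AD and 164, 167 and 174 CPM in Null (-0.64 ± 0.10, adjusted p = 0.0342). For both enzymes each AD mouse was below each Null mouse. Mvd measured 25.3, 26.3 and 33.6 CPM in AD and 44.7, 54.7 and 82.8 CPM in Null, without overlap, and missed the threshold in edgeR (-1.04 ± 0.22, adjusted p = 0.164). Pmvk (-0.61 ± 0.14), Sc5d (-0.49 ± 0.12) and Fdft1 (-0.48 ± 0.10) also had an unadjusted p under 0.05 and were not called. With 3 mice a group the liver calls rested on few libraries: leaving out any 1 of AD-700, AD-701, AD-702 or Null-923 left 0 calls, and the calls for Fdps and Lss were also lost without Null-1087, while DESeq2 called 7 genes (the 3 with Mvd, Pmvk, Sc5d and Fdft1) and edgeR without a filter on low counts called 8 (those with Hmgcs1), all lower in AD.

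**Figure D5:**
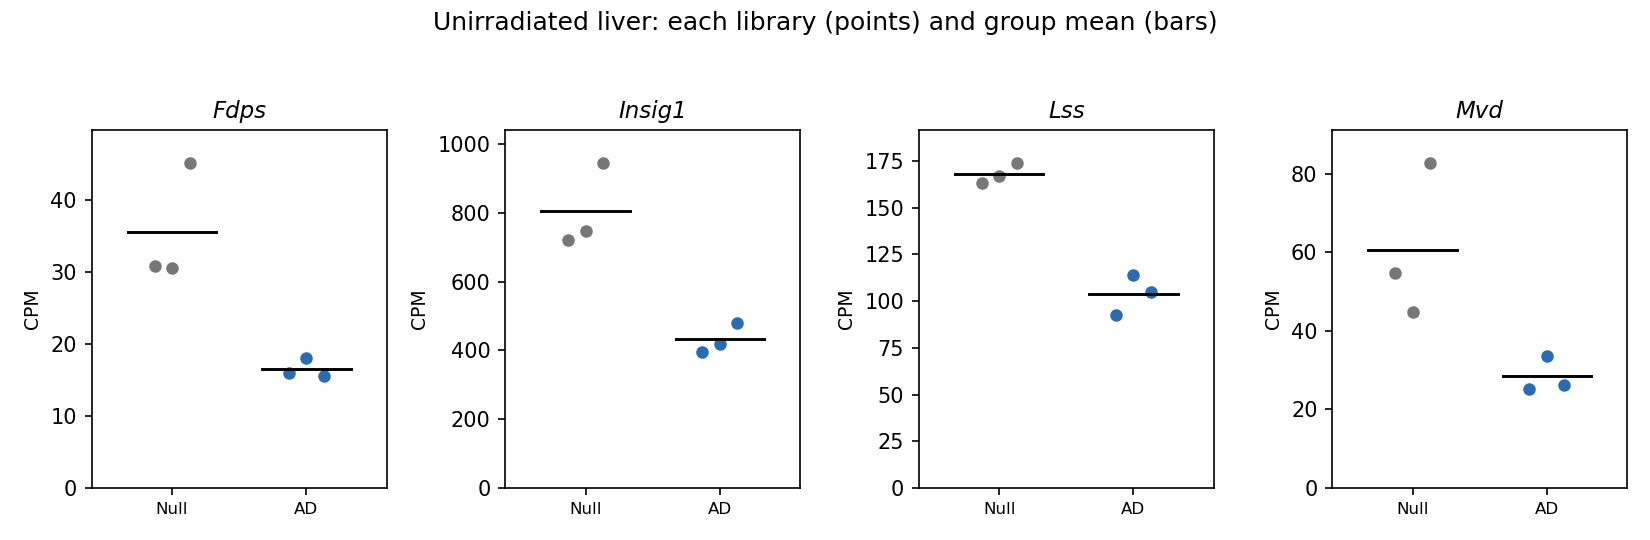
CPM (linear axis from 0) of Fdps, Insig1, Lss and Mvd in unirradiated liver of Null and AD mice, with a point for each library and a bar for each group mean. The 3 AD libraries lie below the 3 Null libraries in each panel, at 396 to 480 against 721 to 945 CPM for Insig1.

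In intestine 0 of the 30 genes were called between AD and Null by edgeR (0.015% of all genes), with 5 at an unadjusted p under 0.05, and DESeq2 called 1, Abca1. Abca1 measured 27.2, 31.0 and 33.9 CPM in AD and 20.6, 22.2 and 22.7 CPM in Null, without overlap (0.49 ± 0.11, adjusted p = 0.396). The next by p were Nsdhl (-0.52 ± 0.12), Pmvk (-0.50 ± 0.13) and Mylip (0.46 ± 0.17). The acinar marker sums of these intestine libraries, given above, varied widely within both genotypes, and their part was not tested. In pancreas 0 were called by edgeR or DESeq2 (0.0548% of all genes), with 3 at an unadjusted p under 0.05: Pmvk (-1.16 ± 0.33, from 1.82 to 4.03 CPM in AD and 5.29 to 7.51 CPM in Null), Nr1h3 (0.54 ± 0.17) and Cyp51 (-0.42 ± 0.20). Next by p was Lss (-0.30 ± 0.14). A joint test that the AD effect was the same in the 4 tissues called 0 of the 30 genes in edgeR (0.172% of all genes; 7 at an unadjusted p under 0.05) and 3 in DESeq2, Mvd, Lss and Insig1. In edgeR the smallest adjusted p was 0.225, for Mvd, so a difference of the AD effect between tissues was not shown for these genes.

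Over the 18 comparisons within a tissue, 21 of the 30 genes were called at least once. The 9 called in none were Mvk, Pmvk, Ebp, Sc5d, Srebf2, Insig2, Soat1, Abcg1 and Mylip, which in irradiated Null thymus averaged 7.26, 17.8, 21.6, 35.3, 61.5, 17.7, 95.3, 97.2 and 40.2 CPM. For 5 genes the counts may be shared with near-identical copies (at least 90% identity over at least 500 bases): Fdps with 5, Idi1 with 3, and Fdft1, Acat2 and Ggps1 with 1 each. Fdps and Fdft1 each also share exon sequence with 1 gene that overlaps them (Gm43738 and Ctsb). Cyp51, Fdft1, Ggps1, Lss, Scap, Insig2, Soat1, Mvd and Nr1h3 also overlap an annotated gene on the other strand. Tm7sf2, Fdps, Srebf2, Nr1h3 and Abcg1 overlap at least 1 on their own strand. The overlapping genes with the most counts were those of Fdft1, Cyp51, Ggps1 and Tm7sf2. Whether counting used strand was not given in the sources used here, so reads of these pairs may not be told apart.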

How the data were processed

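RNA sequencing of mouse thymus, intestine, liver and pancreas gave 1 table of raw counts per gene for 42 libraries, as deposited by the authors. The tools named per the submitters' processing notes are STAR 2.6.0b, a read aligner, and DESeq2, with GRCm38 as the genome build. For the counter, the annotation release and the strand setting, a statement is not given in the sources used here. Gene symbols came from GENCODE: 43749 of 49585 identifiers matched exactly, 5577 without their version and 259 not at all. Promoter sequences came from RefSeq.

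The members and the lists were chosen with earlier results of these data known. Counts were filtered, scaled by TMM and fitted with edgeR 4.0.16 (robust quasi-likelihood F test) in R 4.3.3, and p-values were adjusted by Benjamini-Hochberg over all genes tested at a threshold of 0.05. The 4 irradiated thymus groups shared 1 fit of 16 libraries and 22206 genes, the 8 basal thymus libraries another, irradiated and basal thymus together a fit of 24, each AD against Null comparison in another tissue a fit of 6, and the tissue comparison a fit of 23. CPM used a single TMM scaling over all libraries, and 95% intervals are the change ± 1.96 SE. Called members were named by size, up to 10 a direction (all 13 higher in RP than in Het were named), and up to 4 by smallest p where none was called, with up to 4 called genes of each other list.

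Alternatives were DESeq2 1.42.0, RLE scaling, no filter, only the groups compared, Adipoq or sex transcripts as covariates, and leaving out each library. Of the 25 animals 6 gave more than 1 tissue, by the animal numbers in the labels, and that number was a block in an alternative tissue fit. On simulated counts for irradiated Het against Null thymus, 37.3% of 1.5-fold and 83.6% of 2-fold changes were recovered, with 4 false among 147 calls, and for liver AD against Null 2.99% and 37.3%, with 1 false among 87 calls. The simulated counts had the same dispersion for every gene, and changed genes were drawn at random from those tested. Recovery for the members themselves was not measured.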

Additional observations from a re-analysis of the deposited data

Results flagged for a closer look

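Among the 120 combinations of a member and an irradiated thymus group of 4 mice, 9 had a library far from the other 3 on the log2 CPM scale by Dixon's test. Chance flags about 1 in 20 groups. The libraries Het-631 and Null-604 each appeared for 2 genes. Srebf2, which encodes SREBP2, stood at 6.26 in Null-604 (others 5.81 to 5.83) and at 6.14 in Het-631 (others 5.82 to 5.87). Ggps1, which makes geranylgeranyl diphosphate, stood at 4.45 in Het-631 (others 4.80 to 4.85) and at 4.72 in RP-653 (others 4.95 to 4.97). Soat1, which esterifies cholesterol, stood at 6.50 in Null-604, below the 6.60 to 6.61 of the others. Sqle stood at 4.13 in AD-633 (others 4.52 to 4.56) and Abca1 at 6.48 in AD-630 (others 6.78 to 6.82). Sc5d stood at 5.06 in AD-726 (others 5.15) and Stard4 at 4.70 in RP-654 (others 4.53 to 4.55).

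The change with irradiation differed between genotypes for 6 genes by an interaction test in edgeR. Het differed from Null for Hmgcs1 (-0.74), Sqle (-0.75) and Cyp51 (-0.77), all enzymes of the pathway. Het differed from AD for Hmgcs1 (-0.47), Idi1 (-0.79) and Cyp51 (-0.49), with a lower change in Het, and for Scap (0.45) and Nr1h3 (0.88), with a higher one. Both contrasts share the Het libraries.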

How the results depend on the processing

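No value of a called member changed sign under any alternative run: 3862 values stayed on the same side of the threshold and 157 did not stay past it. Of the counts of members called, 363 stayed within 1.5 times and 24 did not, and of the medians 350 moved by less than the spread between replicates and 8 by more. RLE scaling shifted the median of all genes by at most 0.0447. In irradiated Het against Null thymus, 9 members were called with only the 2 groups fitted, and leaving out 1 library gave 9 (without Het-595 or Null-856) to 16 (without Het-631), with medians of -0.27 (without Null-857) to -0.15 (without Null-604). In AD against Het, leaving out 1 library gave 8 (AD-630) to 17 (Het-631). DESeq2 and the 2-group fit each called 1 member between AD and RP. With Adipoq as a covariate the medians were -0.16 and -0.11 in basal Het and AD thymus against Null and -0.10 for the Het minus Null response. DESeq2 called 1 member in intestine (1 with no filter), 7 in liver (8 with no filter), 6 in the Het minus Null response and 3 in the AD effect by tissue. Leaving out 1 library gave 0 to 3 in liver, 2 (Null-859) to 7 (Het-631) in the Het minus Null response, and 2 (AD-630 or Het-703) to 9 (Het-631) in the Het minus AD response. Medians ranged from -0.12 to -0.013 in the AD minus Null response, from -0.19 to -0.067 in the Het minus AD response, and from -1.29 to -1.15 in pancreas. The cause of these moves was not tested.

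The fit with the animal as a replicate block called 29, 24, 28 and 28 members in liver, intestine, thymus and pancreas and 0 for the AD effect by tissue, as without it; the call for Hmgcs1 in intestine was lost (0.22). A covariate from Xist, cut at 0 on the log2 CPM scale, could be fitted only in liver and across tissues. Every library outside liver was above that cut, so across tissues it set apart only some liver libraries and did not adjust for sex. Ddx3y, chosen after seeing the data, took its place elsewhere. Small changes may be missed in liver, where 2.99% of simulated 1.5-fold changes were recovered. The simulation gave every gene the same dispersion, so this recovery need not hold for the members.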
